A study of Mus musculus with 12 samples.

Results

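The protein-coding genes for the proteins of the cytosolic ribosome were described across 12 mouse T cell libraries. They were taken by symbol, as Rpsa, Rplp0, Rplp1 and Rplp2 together with every Rpl or Rps symbol that consists of a number and an optional letter, l or x, without the Rps6k kinases and without -ps and -rs copies. The rule found 80 of the 45706 genes in the count table, 31 for the small subunit and 49 for the large one. The libraries came from conventional and regulatory T cells of WT mice and of Coro1-/- mice, which lack coronin 1A, an actin-associated regulator that T cells need to persist in the periphery. Each of the 4 groups held 3 libraries: WT conventional, Coro1-/- (below, KO) conventional, WT regulatory and KO regulatory. The age and sex of the mice, the tissue, the sort and any treatment are not given in the sources used here. Whether the 3 libraries of a group stem from different mice is not stated, and p-values therefore reflect only the scatter among these samples, which may be technical.

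The cytosolic ribosome joins a small subunit, which reads the messenger RNA, to a large subunit, which forms the peptide bond. Its proteins are needed in nearly equal amounts, and cells coordinate their supply mainly through translation of their messages, most of which begin with a C followed by a run of pyrimidines, the 5' terminal oligopyrimidine (TOP) tract that the kinase mTORC1 acts on through La-related and 4E-binding proteins. T cells raise ribosome production when they leave quiescence and divide.

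The start regions of these genes were searched for a tract of this kind, a sequence feature the symbol rule did not use. A tract was counted where, on the gene's strand and within 50 bases of the RefSeq start (assembly GRCm38.p6), a C was followed by at least 6 further C or T. It was found in 51 of the 60 members with a RefSeq start sequence, or 85.0%, against 43.9% of 26965 other genes and 40.6% of 69 genes for mitochondrial ribosomal proteins. A match describes letters and not a start site in use, and a counted tract can lie anywhere within those 50 bases, not only at the start. The following 60-base windows run from 40 bases before the annotated start to 20 bases after it, with each such tract in capitals. They show a stalk protein, small and large subunit proteins whose tract lies at the start, and Rps27l, the member whose levels differed in direction from the rest.
Rplp2: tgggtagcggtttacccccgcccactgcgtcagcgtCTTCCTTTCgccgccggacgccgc
Rps6: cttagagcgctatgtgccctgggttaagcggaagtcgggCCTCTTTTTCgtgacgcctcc
Rps18: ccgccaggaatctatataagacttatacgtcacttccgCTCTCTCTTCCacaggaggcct
Rpl15: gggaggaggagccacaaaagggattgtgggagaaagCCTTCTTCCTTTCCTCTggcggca
Rps27: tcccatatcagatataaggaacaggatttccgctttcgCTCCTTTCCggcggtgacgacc
Rps27l: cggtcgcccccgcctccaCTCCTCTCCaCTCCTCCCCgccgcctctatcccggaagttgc
The windows lie at chr7:141447611-141447670 on the plus strand for Rplp2, chr4:86857348-86857407 on the minus strand for Rps6, chr17:33955646-33955705 on the minus strand for Rps18, chr14:18270967-18271026 on the minus strand for Rpl15, chr3:90213629-90213688 on the minus strand for Rps27 and chr9:66946046-66946105 on the plus strand for Rps27l. In the first 5 windows the tract began 1 to 4 bases before the annotated start, and Rps27l held a pair of tracts that began 22 and 12 bases before it. Rps27l has another annotated start, at chr9:66946373-66946432, with no tract in the searched stretch.

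Counts in genes ranged from 19686870 to 33404302 per library. Coro1a, the targeted gene, stood at 2123 to 2711 CPM (counts scaled to library size with TMM factors, as all CPM below) in the WT libraries and at 20.9 to 47.2 CPM in the KO libraries. Replicates 1 and 2 of both conventional groups held reads of Xist and replicate 3 held reads of Y-linked genes, whereas WT regulatory replicate 3 and KO regulatory replicate 1 held both kinds at 10 CPM or more. The remaining regulatory libraries held mainly Y-linked reads, at 277 to 301 CPM (without TMM factors), with Xist at 1.52 CPM or less. Reads that mark sex were thus spread unequally between the cell types. The T cell genes Lat, Cd6, Cd5 and the Cd3d, Cd3e and Cd3g chains were detected in every group, with sums of 3062 to 3351 CPM in WT conventional, 1948 to 2315 in KO conventional, 1683 to 2322 in WT regulatory and 1083 to 1662 in KO regulatory libraries. Reads that mapped to several places were tallied apart from genes by the authors. They made up 10.1% to 11.1% of reads in WT conventional, 9.25% to 9.35% in KO conventional and 15.8% to 19.5% in regulatory libraries. This bears on the members, because 44 of the 80 share more than 50% of the 50-base windows of their main transcript with another annotated gene, so their levels are those of the uniquely mapped reads. Of the 80 members, 78 passed the filter on low counts. Rpl10l, an intronless copy of Rpl10 known from testis, had no count in any library, and Rpl3l, a muscle form of Rpl3, had 1 count in WT conventional, 31 in KO conventional, 7 in WT regulatory and 15 in KO regulatory libraries.

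Together the 80 genes held between 5.58% and 8.71% of all counts in genes. The share was 6.07%, 6.79% and 7.06% in the 3 WT conventional libraries and 5.75%, 5.86% and 5.58% in the KO conventional libraries. Each KO library was below each WT library. In regulatory T cells the share was 8.48%, 8.10% and 6.90% in WT and 7.48%, 8.23% and 8.71% in KO libraries, and the groups overlapped. The lowest share of each regulatory group was in the library that held both Xist and Y-linked reads at 10 CPM or more. At 1 CPM or more, 4 regulatory libraries held both, among them the WT library with the highest share. Against WT, the mean share of KO conventional libraries was 0.863 ± 0.069 times as large, and that of KO regulatory libraries 1.04 ± 0.14 times. For the ratios of shares, ± combines the relative SDs of both groups (n = 3 each). Regulatory libraries held 1.18 ± 0.15 times the share of conventional libraries in WT and 1.42 ± 0.11 times in KO. The small subunit took 2.88% ± 0.23 of counts in WT conventional, 2.495% ± 0.057 in KO conventional, 3.43% ± 0.37 in WT regulatory and 3.59% ± 0.29 in KO regulatory libraries. The large subunit took 3.76% ± 0.28, 3.23% ± 0.08, 4.40% ± 0.45 and 4.56% ± 0.33 in the same order (SD, n = 3), so both subunits kept the same order of groups. In bulk samples, fewer cells of a type and less RNA per cell cannot be told apart.

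**Figure D1:**
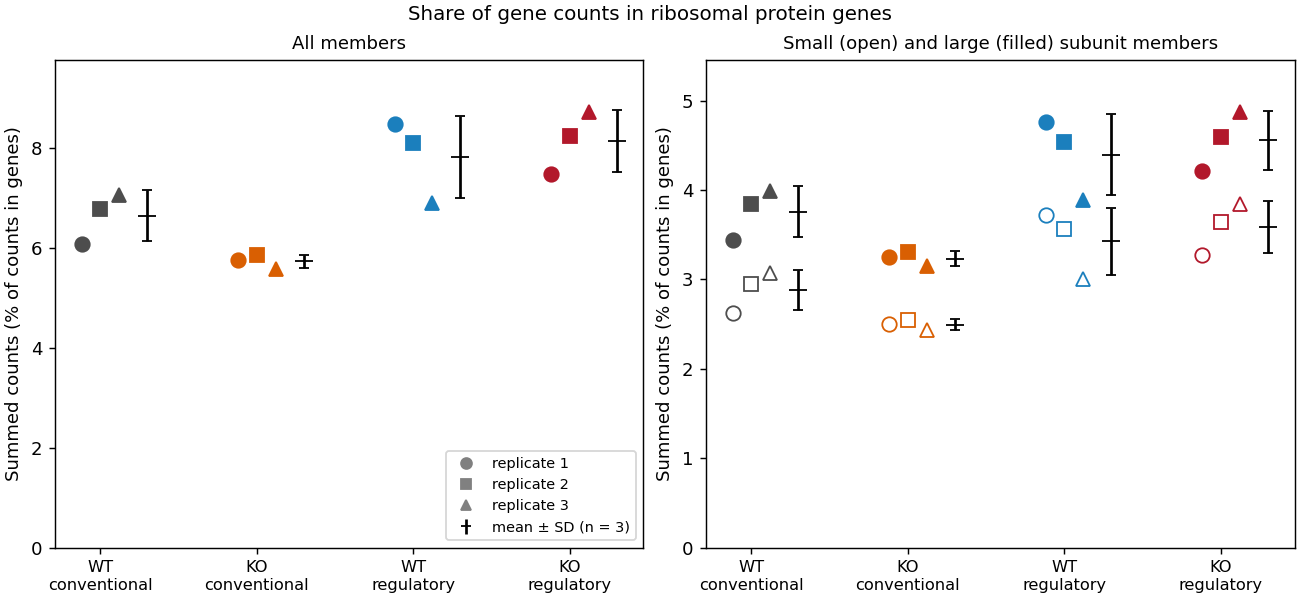
Summed counts of the 80 ribosomal protein genes, in percent of all counts in genes (vertical axis from 0), for each library of the 4 groups, with all members on the left and the small (open) and large (filled) subunit on the right; bars give mean ± SD, n = 3. The 3 KO conventional libraries sit between 5.58% and 5.86%, below the WT conventional libraries at 6.07% to 7.06%, and the regulatory groups overlap each other. Per summed counts of 6 T cell genes the KO to WT ratio in conventional cells turns from 0.863 to 1.15.

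In conventional T cells, ribosomal protein messages were lower in KO than in WT libraries as a group and by similar amounts, on TMM scaling, a direction that turned under scaling to the 6 T cell genes (below). Of the 78 members tested, 73 fell and 1 rose at an adjusted p under 0.05 (edgeR's quasi-likelihood test, adjusted by Benjamini-Hochberg over 15922 genes), where 25.4% of all genes tested fell and 23.3% rose. The median log2 fold change of the members was -0.37, against -0.05 over all genes tested. Among members the values ran from -0.71 for Rpl12 to 0.47 for Rps27l, and 2 members differed by 1.5-fold or more. The groups separated fully, with KO lower, in 74 of 78 members and in 35.5% of all genes, and with KO higher in 1 member and in 28.1% of all genes. The small subunit had 29 of 31 members lower, 1 higher and a median of -0.38, and the large subunit 44 of 47 lower, none higher and a median of -0.36. Among the 4 that did not pass the test were Rpl32, Rpl37a and Rpl39l, with log2 fold changes of -0.24, -0.28 and -0.24.

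The genes for the proteins of the stalk, the flexible arm of the large subunit that recruits elongation factors, were among the members whose messages fell. Rplp0, which anchors the stalk, stood at 2296, 2647 and 2808 CPM in WT against 1848, 1873 and 1737 CPM in KO conventional libraries. Its log2 fold change was -0.51 ± 0.10 (SE; edgeR adjusted p = 0.00214). Rplp1, which pairs with Rplp2 as the acidic tip of the stalk, stood at 2060, 2506 and 2659 CPM in WT against 1778, 1782 and 1584 CPM in KO, a log2 fold change of -0.49 ± 0.13 (edgeR adjusted p = 0.00831). In Rplp2 the WT libraries gave 972, 1042 and 1042 CPM and the KO libraries 706, 781 and 700 CPM, a log2 fold change of -0.48 ± 0.12 (edgeR adjusted p = 0.00721). The groups did not overlap in any of the 3 genes. Rpl12, whose protein sits at the base of the stalk, had the lowest log2 fold change of all members. Its levels were 2102, 2318 and 2420 CPM in WT against 1372, 1487 and 1326 CPM in KO libraries, so that the highest KO library lay well under the lowest WT library, and the log2 fold change was -0.71 ± 0.12 (edgeR adjusted p = 0.000722). It lies at chr2:32961559-32965345 (GRCm38, plus strand).

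Among the other large subunit members, Rpl5 and Rpl11, which carry the 5S ribosomal RNA and also bind the p53 regulator Mdm2, fell by 0.48 ± 0.10 and 0.30 ± 0.09 on the log2 scale (edgeR adjusted p = 0.00265 and 0.0204). Rpl5 stood at 1113, 1201 and 1239 CPM in WT against 865, 875 and 808 CPM in KO libraries. Rpl4, which lines the exit tunnel for the new peptide, stood at 2644, 2798 and 2920 CPM in WT against 2267, 2306 and 2127 CPM in KO libraries, with a log2 fold change of -0.32 ± 0.09 (edgeR adjusted p = 0.013). Rpl3, near the site of peptide bond formation, stood at 1264, 1338 and 1382 CPM in WT against 1023, 1064 and 991 CPM in KO, with a log2 fold change of -0.37 ± 0.09 (edgeR adjusted p = 0.00418). Rpl10, which is loaded late onto the large subunit, stood at 581, 598 and 610 CPM in WT against 452, 495 and 462 CPM in KO libraries, with a log2 fold change of -0.34 ± 0.09 (edgeR adjusted p = 0.00698). In all 4 of the genes given here by library, each KO library lay below each WT library. Rpl24, whose protein bridges the subunits, is uncertain: 47.0% of its exon bases lie within Gm28037, a transcript listed at 0 in every library, and it had only 1.92 to 2.31 CPM in WT against 1.22 to 1.52 CPM in KO libraries. Its log2 fold change was -0.61 ± 0.21 (edgeR adjusted p = 0.0332). The part of the overlap in its low level was not tested.

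In the small subunit, Rps16, whose tail reaches the decoding site, had the lowest log2 fold change. It stood at 593, 690 and 756 CPM in WT against 490, 459 and 417 CPM in KO libraries, without overlap, a log2 fold change of -0.58 ± 0.12 (edgeR adjusted p = 0.00248). Rps4x, the X-linked copy of a protein that binds early in assembly, stood at 1571, 1734 and 1794 CPM in WT against 1246, 1267 and 1160 CPM in KO libraries, a log2 fold change of -0.47 ± 0.10 (edgeR adjusted p = 0.00232). Rps19, the gene most often mutated in Diamond-Blackfan anaemia, had a log2 fold change of -0.50 ± 0.11, and Rps6, the main substrate of the S6 kinases, one of -0.37 ± 0.10 (edgeR adjusted p = 0.00331 and 0.0114). Rpsa, also known as a laminin receptor, stood at 1798, 1957 and 2040 CPM in WT against 1475, 1570 and 1457 CPM in KO, a log2 fold change of -0.36 ± 0.11 (edgeR adjusted p = 0.0165). By contrast Rpl32, of the large subunit, stood at 821, 920 and 970 CPM in WT against 772, 792 and 736 CPM in KO libraries, which did not overlap, but its edgeR adjusted p was 0.0819.

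Rps27l was the 1 member that rose. It encodes a near-identical paralogue of Rps27 and is known as a target of p53, and it lies at chr9:66946086-66949516 (GRCm38, plus strand). It stood at 17.7, 19.8 and 19.3 CPM in WT against 26.6, 25.8 and 26.4 CPM in KO conventional libraries, so every KO library was above every WT library. Its log2 fold change was 0.47 ± 0.07 (edgeR adjusted p = 0.000223), and in 18 of 18 alternatives other than the T cell scaling it stayed between 0.42 and 0.59 with an adjusted p of at most 0.00835. Rps27 itself, at 1300, 1599 and 1650 CPM in WT against 1081, 1087 and 1009 CPM in KO libraries, fell by 0.52 ± 0.13 on the log2 scale (edgeR adjusted p = 0.00683). The ratio of the 2 genes within a library does not depend on the scaling. Per 1000 counts of Rps27, Rps27l had 13.6, 12.4 and 11.7 counts in WT conventional libraries, against 24.6, 23.8 and 26.1 in KO conventional libraries. In regulatory libraries the ratio was 24.9, 25.1 and 30.4 in WT and 31.2, 30.8 and 27.9 in KO, so the WT conventional group was the lowest of the 4. Each value rests on 525 to 1607 counts of Rps27l, but 98.6% of the windows of Rps27 and 22.4% of those of Rps27l are shared with other annotated genes, so the absolute ratio is uncertain.

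Of the remaining duplicated members, Rpl39, a short protein of the exit tunnel, stood at 284, 325 and 341 CPM in WT against 239, 266 and 246 CPM in KO libraries and fell by 0.34 ± 0.11 on the log2 scale (edgeR adjusted p = 0.0209). Its paralogue Rpl39l, known from male germ cells, was near the detection limit, with 22 counts in all WT and 21 in all KO conventional libraries. Rpl3l was at 0, 0 and 0.032 CPM in WT against 0.305, 0.286 and 0.304 CPM in KO conventional libraries. It was not tested with the filter, and without a filter it was a further member called higher.

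Markers of other cell types moved with genotype in the conventional libraries. The summed level of 8 macrophage and monocyte genes was 226 to 296 CPM in WT against 1437 to 3178 CPM in KO libraries, and that of 9 neutrophil genes 4.93 to 12.4 and 352 to 698 CPM, with no gene of either list at 0 in a group. The 9 B cell genes summed to 5 to 7.06 and 35.4 to 57.8 CPM, 7 NK cell genes to 85.0 to 103 and 323 to 583 CPM, 7 dendritic cell genes to 3.46 to 5.12 and 40.8 to 89.8 CPM, and 5 regulatory T cell genes to 128 to 183 and 250 to 414 CPM. In the same order, 6 plasma cell genes summed to 79.0 to 94.5 and 139 to 206 CPM, and 6 erythroid genes to 6.03 to 24.9 and 30.1 to 76.0 CPM. In the same libraries the 6 T cell genes were lower in KO, as given above. Their part in the lower ribosomal protein levels was not tested. Under scaling to the 6 T cell genes, the median of all genes moved to 0.53 and that of the members to 0.22, and 0 members were called lower and 1 higher. The members then stood 0.31 below the median of all genes on the log2 scale, against 0.32 below it with TMM. A change of scaling moves all genes of a library nearly alike, so this gap could hardly change and does not test the scaling. Leaving out WT conventional replicate 3 or KO conventional replicate 3 left 40 members called lower, and the 4 conventional libraries with Xist reads alone gave 38 lower and 1 higher.

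**Figure D2:**
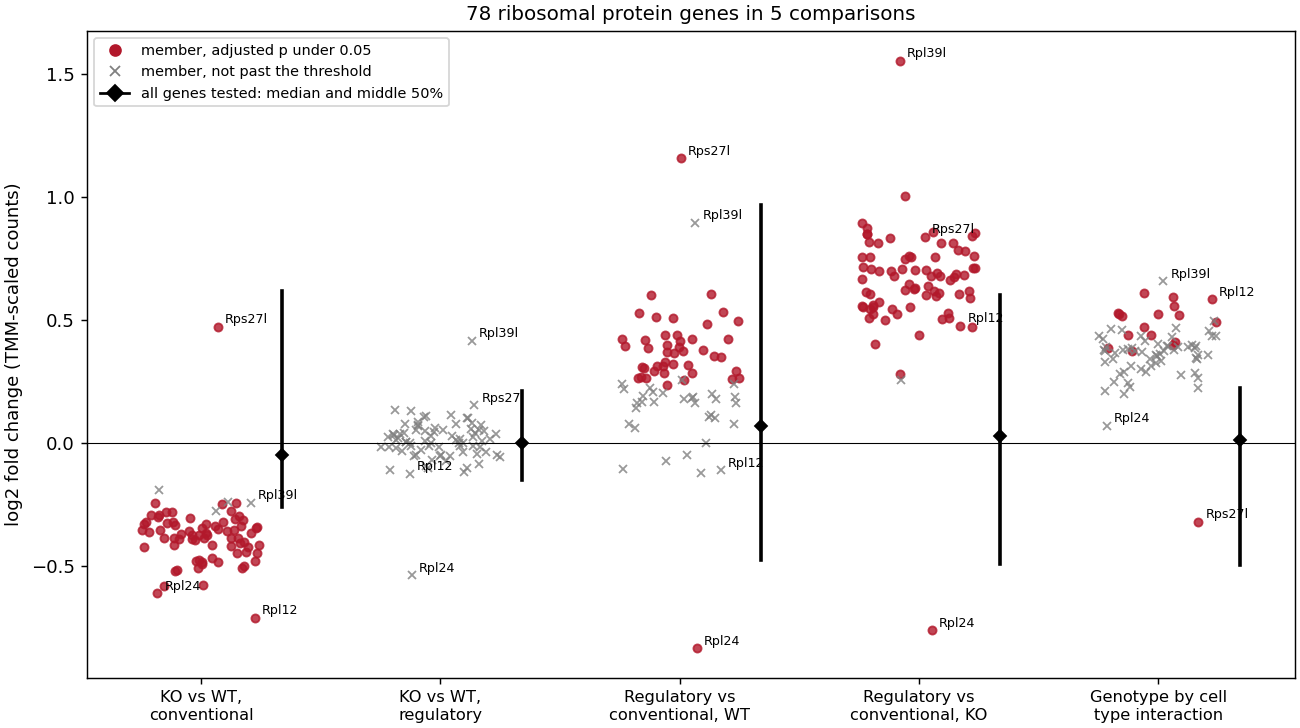
Log2 fold change (vertical axis, TMM-scaled counts) of the 78 tested members in the 5 comparisons, with members past an adjusted p of 0.05 as filled points and the others as crosses, beside the median and middle 50% of all genes tested; sideways spread within a comparison has no meaning. In the KO to WT comparison of conventional cells 73 members lie below 0 and past the threshold, in that of regulatory cells none does, and scaling to 6 T cell genes moves the member medians of these comparisons to 0.22 and 0.55.

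In regulatory T cells, no ribosomal protein gene passed the test between KO and WT, where 4.01% of all genes rose and 3.82% fell. At an unadjusted p under 0.05 edgeR gave 1 member higher and 1 lower, and DESeq2 and limma-voom called 0 members in either direction. The median log2 fold change of the members was 0.01, against 0.00 over all genes tested, and 47 of 78 lay above 0. The groups separated fully, with KO lower, in 1 member (Rpl24) and in 13% of all genes, and with KO higher in no member and in 13.2% of all genes. The lowest adjusted p of a member was 0.169. Rplp0 stood at 2786, 2475 and 2245 CPM in WT against 2599, 2559 and 2911 CPM in KO libraries. Rplp1 stood at 2560, 2412 and 1904 CPM in WT against 2294, 2424 and 2687 CPM in KO, and Rplp2 at 1261, 1129 and 898 CPM in WT against 967, 1241 and 1184 CPM in KO libraries. In the 3 stalk genes the groups overlapped, and the log2 fold changes were 0.10 ± 0.10, 0.11 ± 0.13 and 0.05 ± 0.12 (edgeR adjusted p = 0.561, 0.634 and 0.85).

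Among the members with the highest and lowest log2 fold changes, Rpl12 stood at 2483, 2110 and 1749 CPM in WT against 1749, 2022 and 2054 CPM in KO regulatory libraries (log2 fold change -0.12 ± 0.12, edgeR adjusted p = 0.559). Rpl4, at 3530, 3212 and 2889 CPM in WT against 2809, 2940 and 3127 CPM in KO, had a log2 fold change of -0.12 ± 0.09 (edgeR adjusted p = 0.442). Rps9, a protein of the small subunit that helps keep decoding accurate, stood at 1947, 1742 and 1540 CPM in WT against 1794, 1953 and 2005 CPM in KO libraries (log2 fold change 0.14 ± 0.09, edgeR adjusted p = 0.363). Rps27l stood at 44.0, 48.4 and 48.8 CPM in KO and 44.3, 43.0 and 39.6 CPM in WT libraries, the groups overlapped, and its log2 fold change of 0.15 ± 0.07 did not pass the test (edgeR adjusted p = 0.169). Rpl24 and Rpl39l, with log2 fold changes of -0.54 ± 0.23 and 0.42 ± 0.60, rested on under 100 counts per group. Rpsa stood at 2543, 2358 and 1943 CPM in WT against 2230, 2398 and 2715 CPM in KO libraries (edgeR adjusted p = 0.59). Scaled to the 6 T cell genes, which were lower in KO regulatory libraries, 75 members were called higher, with a member median of 0.55 and a median of all genes of 0.53. Sums in WT and KO regulatory libraries were 60.6 to 114 and 119 to 275 CPM for neutrophil genes. They were 49.8 to 81.7 and 87.8 to 97.1 CPM for NK cell genes, and 45.8 to 74.2 and 76.2 to 127 CPM for dendritic cell genes. The macrophage and monocyte, B cell, plasma cell, erythroid and regulatory T cell sums overlapped. The part of these sums in the member levels was not tested.

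Between regulatory and conventional T cells of WT mice, ribosomal protein genes were mostly higher in the regulatory libraries, but only modestly, and 33 of 78 did not pass the test. The same WT regulatory libraries summed to 3601 to 5043 CPM in 9 B cell genes and 5042 to 9211 CPM in 6 erythroid genes. Their 6 T cell genes summed to 1683 to 2322 CPM. The part of other cells in the difference was not tested. Of 78 members, 44 rose and 1 fell, where 39.1% of all genes rose and 33.3% fell, and the median log2 fold change was 0.27 against 0.07 over all genes tested. All regulatory libraries lay above all conventional libraries in 30 members, as in 39.9% of all genes, which is near the background. All lay below in 1 member, against 35.4% of all genes. The large subunit had 30 of 47 members higher and the small subunit 14 of 31, with medians of 0.31 and 0.23. Leaving out WT conventional replicate 1 left 27 members called higher, leaving out the 2 regulatory libraries where Xist and Y-linked genes both had reads at 10 CPM or more, a set chosen after seeing the data, gave 66, and leaving out the 4 with both at 1 CPM or more, which keeps 1 regulatory library per genotype, gave 46.

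Rps27l had the highest log2 fold change, 1.16 ± 0.07 (edgeR adjusted p = 6.88e-08), from 17.7 to 19.8 CPM in conventional libraries to 39.6 to 44.3 CPM in regulatory libraries. Rpl41, the shortest ribosomal protein, with a coding length of 75 bases, stood at 322, 378 and 429 CPM in conventional and 565, 636 and 517 CPM in regulatory WT libraries, without overlap, a log2 fold change of 0.61 ± 0.12 (edgeR adjusted p = 0.000608). Rpl39l, with 22 and 38 counts per group, did not pass the test (edgeR adjusted p = 0.245). The stalk genes did not pass the test, with log2 fold changes of -0.05 ± 0.10 for Rplp0, -0.07 ± 0.13 for Rplp1 and 0.11 ± 0.12 for Rplp2 (edgeR adjusted p = 0.7, 0.627 and 0.453). Rpl12 and Rps24, a small subunit protein also mutated in Diamond-Blackfan anaemia, had log2 fold changes of -0.11 ± 0.12 and -0.12 ± 0.12 and did not pass either (edgeR adjusted p = 0.432 and 0.389). Rpsa, at 0.24 ± 0.11, and Rps27, at 0.08 ± 0.13, also missed the threshold (edgeR adjusted p = 0.066 and 0.607). Only Rpl24 fell, by 0.83 ± 0.22 on the log2 scale (edgeR adjusted p = 0.00489), with the doubt about its counting given above.

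In KO mice the same comparison gave 76 of 78 members higher in the regulatory libraries and 1 lower, where 36.1% of all genes rose and 31.7% fell. The median log2 fold change of the members was 0.68, against 0.03 over all genes tested, and 57 members differed by 1.5-fold or more. All regulatory libraries lay above all conventional libraries in 76 members, as in 38.6% of all genes, and below in 1, as in 34.1%. The small subunit had 30 of 31 and the large subunit 46 of 47 members higher, with medians of 0.63 and 0.68. This comparison shares its KO conventional libraries with the KO to WT comparison of conventional cells, and its count varied between 74 and 77 members in every alternative run.

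Rpl41 had 297, 291 and 276 CPM in conventional and 555, 518 and 662 CPM in regulatory KO libraries, a log2 fold change of 1.01 ± 0.12 (edgeR adjusted p = 1.63e-05). Rpl36, a small protein of the large subunit's solvent side, stood at 262, 289 and 249 CPM in conventional and 433, 532 and 521 CPM in regulatory libraries, a log2 fold change of 0.89 ± 0.12 (edgeR adjusted p = 5.04e-05). Rpl39l had the highest fitted value, 1.56 ± 0.65 (edgeR adjusted p = 0.0498), from 21 counts in conventional and 59 in regulatory libraries, and it lost the call in most alternatives. The stalk genes rose by 0.56 ± 0.10 (Rplp0), 0.53 ± 0.13 (Rplp1) and 0.63 ± 0.12 (Rplp2), and Rpsa by 0.71 ± 0.11 on the log2 scale (edgeR adjusted p = 0.000511, 0.00331, 0.000723 and 0.000142). Rps27l rose by 0.84 ± 0.07 and Rps27 by 0.57 ± 0.13 (edgeR adjusted p = 9.72e-07 and 0.0021). At the low end, Rpl5 rose by 0.28 ± 0.10 (edgeR adjusted p = 0.0274), while Rps24, at 1149, 1232 and 1108 CPM in conventional and 1179, 1550 and 1441 CPM in regulatory libraries, overlapped between the groups and did not pass (edgeR adjusted p = 0.0768). Rpl24 fell by 0.76 ± 0.22 (edgeR adjusted p = 0.01).

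Other measures also separated the cell types. The regulatory libraries of both genotypes summed to 3601 to 5043 CPM in 9 B cell genes and 5042 to 9211 CPM in 6 erythroid genes, against at most 57.8 and 76.0 CPM in any conventional library. In these regulatory libraries both sums exceeded that of the 6 T cell genes, at 1683 to 2322 CPM in WT and 1083 to 1662 CPM in KO. The 6 plasma cell genes summed to 766 to 2159 CPM in WT and 506 to 900 CPM in KO regulatory libraries, against at most 206 CPM in any conventional library. Genes encoded in mitochondria held 5.16% to 8.15% of gene counts in regulatory libraries, against 1.44% to 2.33% in conventional libraries. Within the conventional libraries this share also differed by genotype, at 2.14% to 2.33% in WT and 1.44% to 1.52% in KO. Reads in no annotated feature made up 4.98% to 6.87% in regulatory libraries, against 13.3% to 15.7% in conventional libraries. No gene of the B cell or erythroid list was at 0 in any group, and 1 plasma cell gene was at 0 in the WT conventional group. The 5 regulatory T cell genes (Foxp3, Il2ra, Ikzf2, Ctla4 and Tnfrsf18) summed to 1434 to 1942 CPM in regulatory libraries, to 128 to 183 CPM in WT conventional and to 250 to 414 CPM in KO conventional libraries. Xist reads at 10 CPM or more without Y-linked reads at that level occurred only in conventional libraries. The part of these differences in the ribosomal protein levels was not tested.

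**Figure D3:**
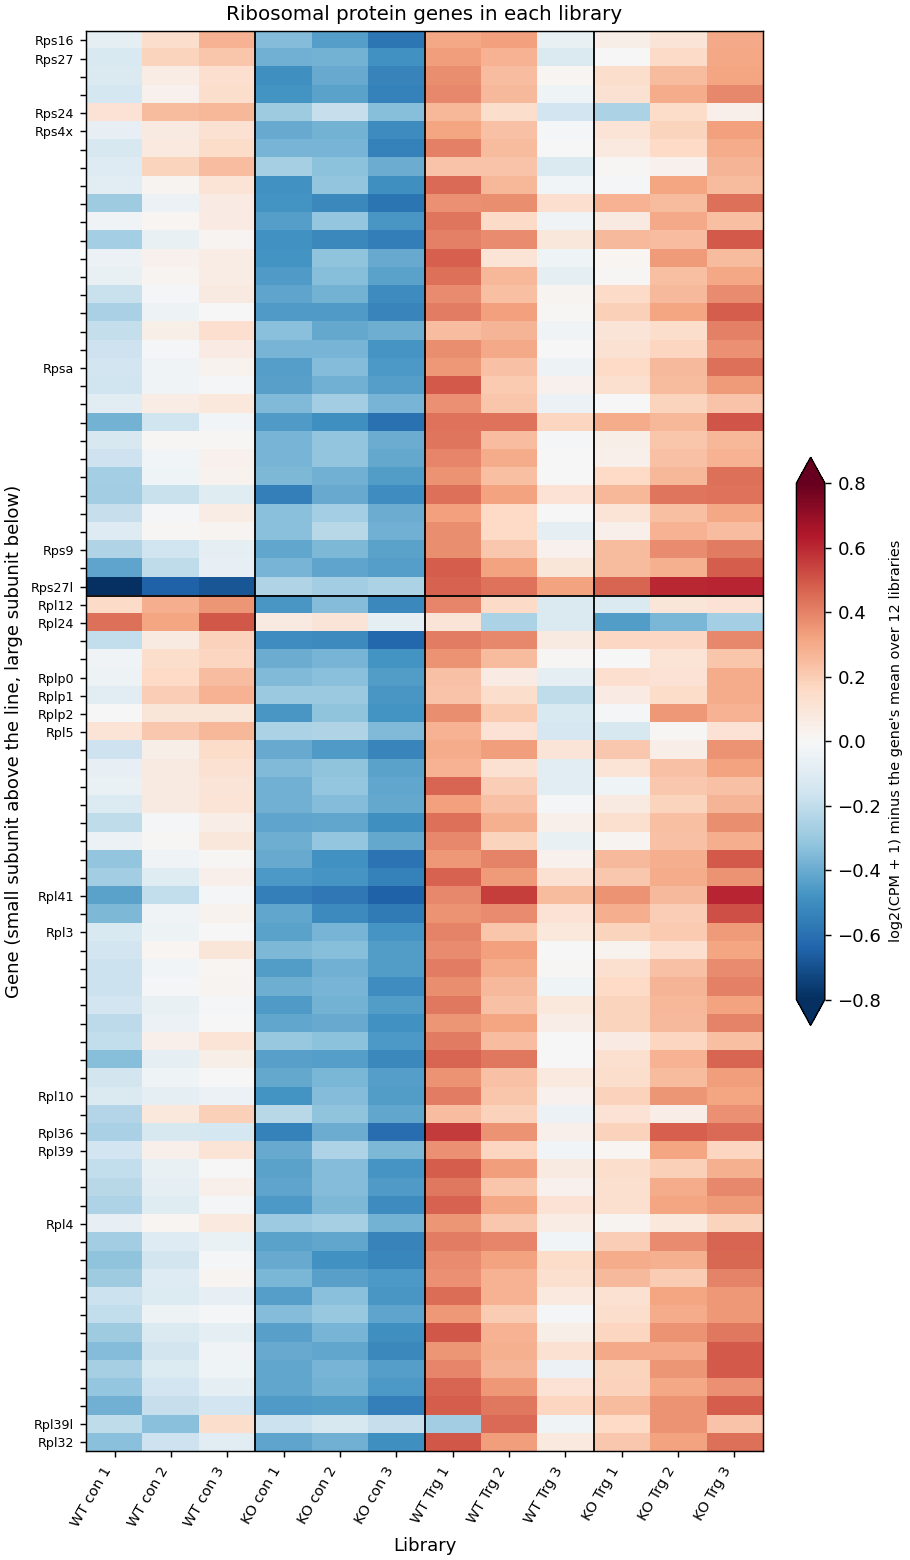
Log2(CPM + 1) of each of the 78 tested members (rows, small subunit above the line and large subunit below) in each library (columns), minus the gene's own mean over the 12 libraries, on a colour scale cut at -0.8 and 0.8, with the members described by value labelled. On this TMM scaling the 3 KO conventional columns lie below the 3 WT conventional columns in 74 rows and below the 3 KO regulatory columns in 76, the 3 WT regulatory columns lie above the 3 WT conventional columns in 30, and Rps27l and Rpl24 depart from the other rows; scaling to 6 T cell genes would turn the KO to WT direction in conventional cells.

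The KO to WT difference itself differed between the cell types in some members. The interaction is the KO to WT log2 fold change in regulatory cells minus that in conventional cells. It was positive and past the threshold in 17 of 78 members and negative in 1, where 8.86% of all genes were called positive and 12.4% negative. The median interaction of the members was 0.38, against 0.02 over all genes tested, and 77 of 78 lay above 0. Rplp0 had the lowest adjusted p, with an interaction of 0.61 ± 0.15 (edgeR adjusted p = 0.0138). At the threshold of 0.05 it kept the call in 22 of 22 alternatives other than the T cell scaling. It lost the call at an adjusted p of 0.01, as did every other member. Among called members the next highest interactions were those of Rplp1 at 0.60 ± 0.18 and Rpl12 at 0.59 ± 0.17 (edgeR adjusted p = 0.0367 and 0.0321), and Rplp2 reached 0.53 ± 0.17 (edgeR adjusted p = 0.0498). In the same alternatives at 0.05, Rplp1 kept the call in 12 of 22, Rplp2 in 9 and Rps27l, described below, in 11.

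The small subunit genes called were Rps19 (0.56 ± 0.16), Rps16 (0.53 ± 0.17), Rps20 (0.52 ± 0.14), Rps4x (0.50 ± 0.14), Rps2 (0.47 ± 0.14) and Rps18 (0.44 ± 0.14), with edgeR adjusted p between 0.0205 and 0.0475. The other large subunit genes called were Rpl8, Rpl36a, Rpl10a, Rpl23, Rpl10, Rpl26 and Rpl3, with interactions from 0.53 down to 0.37. Rpsa, at 0.47 ± 0.15 (edgeR adjusted p = 0.051), and Rps27, at 0.50 ± 0.18 (edgeR adjusted p = 0.0751), missed the threshold. Rpl39l had the highest fitted interaction, 0.66 ± 0.94, and Rpl24 and Rpl4 the lowest of the positive ones, 0.07 ± 0.32 and 0.20 ± 0.13, and none of them passed (edgeR adjusted p = 0.664, 0.899 and 0.294). Rps27l was the 1 member with a negative interaction, -0.32 ± 0.09 (edgeR adjusted p = 0.0338). The count is not stable: leaving out 1 library gave between 1 and 47 members called positive, each of the 12 libraries moved it by more than 1.5 times, and without WT conventional replicate 3 or KO conventional replicate 3 it was 1. Scaled to the 6 T cell genes, 0 members were called, with a member median of 0.33 and a median of all genes of -0.04.

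**Figure D4:**
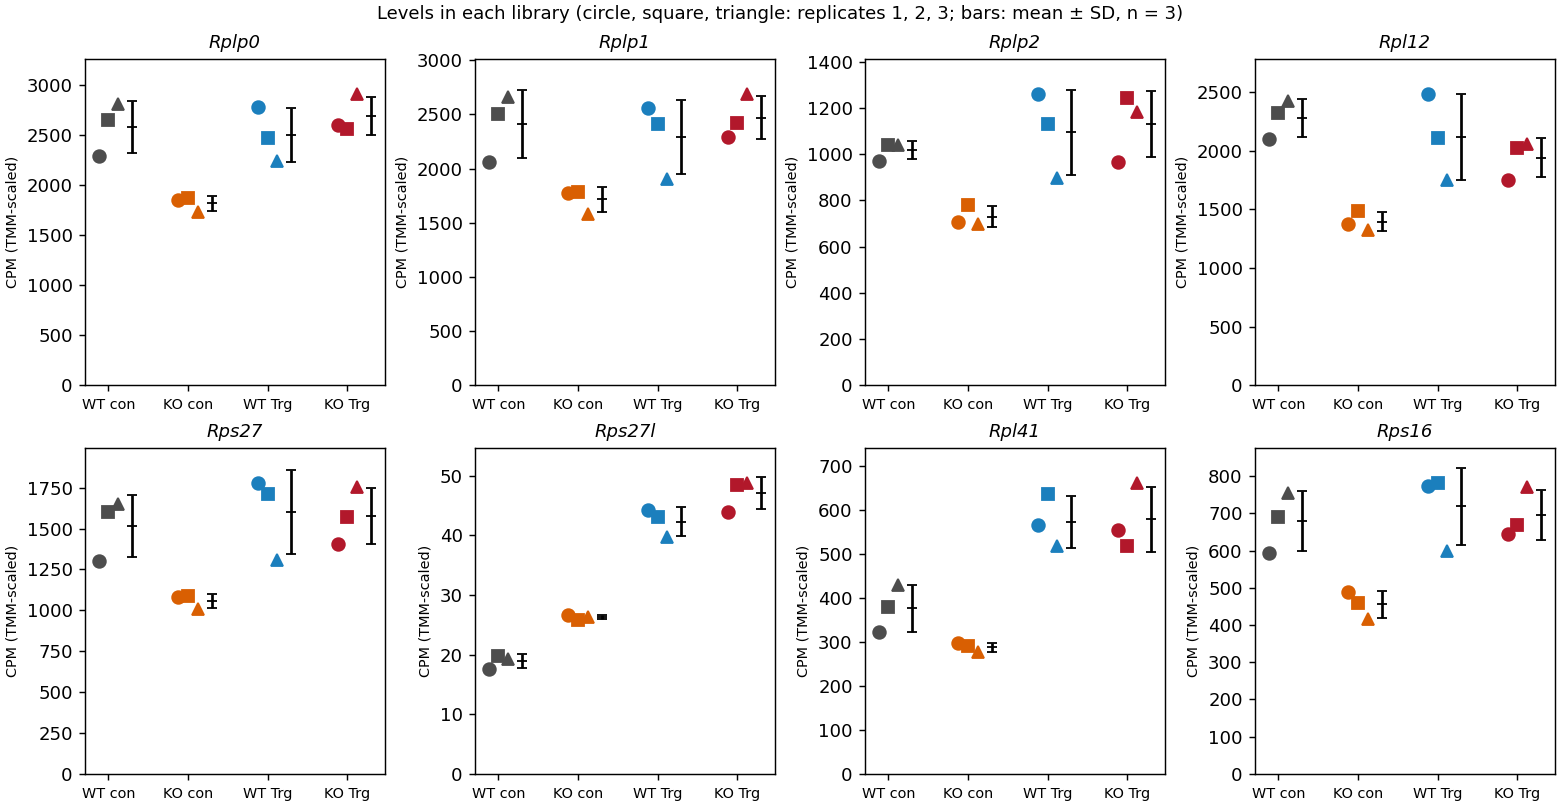
TMM-scaled CPM (vertical axes from 0) of 8 members in each library of the 4 groups, with bars for mean ± SD, n = 3. In Rplp0, Rplp1, Rplp2, Rpl12, Rps27 and Rps16 the KO conventional group is lower than the others, as at 1737 to 1873 CPM for Rplp0, whereas Rps27l is lowest in WT conventional libraries, at 17.7 to 19.8 CPM; scaling to 6 T cell genes turns the sign of the KO to WT difference in conventional cells for Rplp0, Rplp1, Rplp2, Rps27 and Rps16, not for Rpl12.

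Per kilobase of main annotated transcript, the mean level over the 12 libraries was highest for Rplp1 (4451 CPM per kilobase), Rps27 (4168) and Rps15 (3002), while Rpl4 and Rplp0, the members with the most counts, stood at 1819 and 1766 CPM per kilobase. The lowest tested members were Rpl39l (0.455), Rpl24 (2.06) and Rps27l (67.4), and the next was Rpl35 at 233 CPM per kilobase. These levels depend on the transcript that the annotation marks as main and on the share of multimapping reads.

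Near relatives that the symbol rule leaves out fell in part with the members. Of 6 such genes, 4 fell between KO and WT conventional libraries and none rose, where 25.4% of all genes fell and 23.3% rose. Rpl22l1, the paralogue of Rpl22, stood at 110, 137 and 143 CPM in WT against 83.2, 77.7 and 73.3 CPM in KO libraries, a log2 fold change of -0.74 (edgeR adjusted p = 0.00031). Rack1, a scaffold on the small subunit, had a log2 fold change of -0.46 (edgeR adjusted p = 0.00206). In regulatory cells none of the 6 passed the test, and between regulatory and conventional cells 3 rose in WT, where 39.1% of all genes did, and 5 in KO, where 36.1% did. Rps3a1, a small subunit gene whose symbol falls outside the rule and which was added after its values were seen, fell by 0.30 in conventional KO cells (edgeR adjusted p = 0.0283).

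Other lists of the translation machinery ranged from mostly lower to near the background in KO conventional libraries, on the same TMM scaling, where 25.4% of all genes fell and 23.3% rose. Ribosome biogenesis factors, which process ribosomal RNA and assemble the subunits, fell in 78 of 98 members with none higher and a median of -0.29, and those with the lowest adjusted p were Wdr12 (-0.80), Sdad1 (-0.42), Nop56 (-0.51) and Wdr46 (-0.54). Of 20 genes of the RNA polymerase I machinery 13 fell, with a median of -0.25, among them Polr1a (-0.49) and Taf1c (-0.37). Initiation factors fell in 28 of 43 and rose in 1 (median -0.21), with Eif4a2 at -0.52 and Eif3b at -0.31, and elongation and termination factors fell in 11 of 16 and rose in 2 (median -0.32). Eef2k, the kinase that inhibits elongation factor 2, and Gspt2, a termination factor, were the 2 that rose, at 0.96 and 2.68 (edgeR adjusted p = 5.32e-05 and 0.00207). Of 21 other genes with TOP messages 13 fell and 1 rose (median -0.20), including Hnrnpa1 (-0.34) and Npm1 (-0.43). This list overlaps those above, so their counts are not separate. It shares Npm1 with the biogenesis factors, Eef1a1 and Eef2 with the elongation factors, and Pabpc1, Eif4b, Eif3e, Eif3f, Eif3h and Eif4a2 with the initiation factors. Mitochondrial ribosomal proteins, by comparison, fell in 29 of 77 with none higher and a median of -0.18. Of 32 genes of mTORC1, S6 kinase and TOP regulation 8 fell and 5 rose, or 25% and 15.6%, near and under the shares over all genes. Max (-0.34), Rps6ka3 (-0.35), Rps6kb1 (-0.29), Rps6ka1 (-0.26), Larp1 (-0.17), Eif4ebp2 (-0.19), Tsc1 (-0.17) and Mlst8 (-0.21) fell, and the mTOR inhibitor Deptor (1.76) and the translation repressor Eif4ebp1 (1.10) rose (edgeR adjusted p = 3.15e-05 and 0.000659), as did Mycl (3.60), Mycn (1.61) and Rps6kc1 (0.66).

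Between KO and WT regulatory cells, 9 of 98 biogenesis factors fell and none rose (median -0.12), where 3.82% of all genes fell and 4.01% rose, among them Wdr43 (-0.28), Dkc1 (-0.31), Ncl (-0.31) and Nop58 (-0.34), and 1 of 77 mitochondrial ribosomal protein genes, Mrpl32 (0.29), rose. Eef2k (0.56) and Deptor (1.13) rose there too (edgeR adjusted p = 0.0129 and 0.00554). Between regulatory and conventional cells of KO mice, where 36.1% of all genes rose and 31.7% fell, mitochondrial ribosomal proteins rose in 65 of 77 and fell in 3 (median 0.51), initiation factors rose in 31 of 43 and fell in 4 (median 0.37), and biogenesis factors rose in 51 of 98 and fell in 11 (median 0.17). In WT mice, where 39.1% of all genes rose and 33.3% fell, the counts higher and lower were 53 and 7 of 77 for mitochondrial ribosomal proteins (median 0.32), 24 and 7 of 43 for initiation factors (median 0.22), and 30 and 25 of 98 for biogenesis factors (median 0.03), the last below the background in both directions. The interaction was positive and past the threshold in 19 of 98 biogenesis factors, 8 of 77 mitochondrial ribosomal proteins and 7 of 43 initiation factors, and negative in none of these 3 lists, where 8.86% of all genes were positive and 12.4% negative. The 10.4% of mitochondrial ribosomal proteins is near that background.

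**Figure D5:**
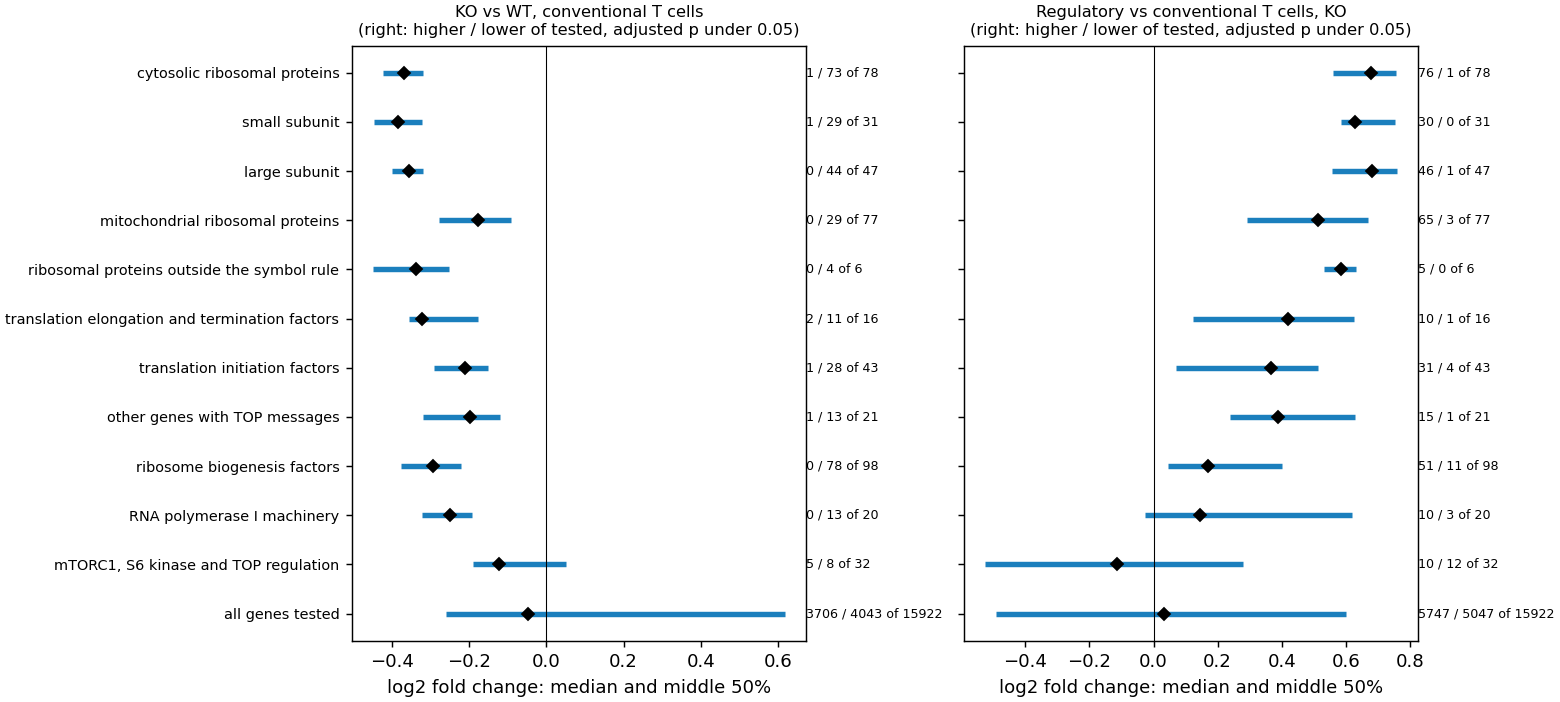
Median (diamond) and middle 50% (line) of the log2 fold change, on TMM scaling, for the ribosomal protein genes, other lists of the translation machinery and all genes tested, in KO against WT conventional cells (left) and in regulatory against conventional cells of KO mice (right), with the counts called higher and lower at the right edge. The cytosolic ribosomal proteins, at -0.37 and 0.68, have narrow ranges beside all genes tested; scaled to 6 T cell genes their medians become 0.22 and 1.25.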

How the data were processed

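Polyadenylated RNA was sequenced after a stranded TruSeq mRNA preparation, per the labels. The submitters' processing notes name STAR and the GRCm38 build, and the authors deposited raw read counts per Ensembl gene, with tallies for unmapped, multimapping, no-feature and ambiguous reads that were kept out of library sizes. The annotation release is not given in the sources used here. Symbols and coordinates came from GENCODE M21 (GRCm38), which matched 45143 of 45706 identifiers. Counts were fitted with edgeR 4.0.16 (filterByExpr, TMM factors, 1 term per group over all 12 libraries, quasi-likelihood test, two-sided), with Benjamini-Hochberg adjustment over 15922 genes at 0.05 and SE taken as the log2 fold change divided by the square root of F. The fitting code was tested on simulated data. Members, lists and tests were chosen with earlier results of these data known. Named are the stalk genes, Rpsa, duplicated members, and the 3 highest and 3 lowest members of each comparison. Of the genes this names, 1 is not reported here. Rps19, Rps6, Rpl11 and, in conventional cells, Rpl5 were added by role after their values were seen. Alternatives used limma 3.58.1, DESeq2 1.42.0, other scalings, filters and library sets. Replicates of a group differed by more than sampling noise. Gene expression counts of 19686870 or more per library leave the spread between libraries, not depth, as the main limit, except for Rpl3l, Rpl10l, Rpl24 and Rpl39l.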

Additional observations from a re-analysis of the deposited data

Results flagged for a closer look

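The KO to WT difference of the ribosomal protein genes differed between conventional and regulatory T cells by the test of the difference itself (edgeR's interaction term), with 17 members called positive and 1 negative, where 8.86% of all genes tested were positive and 12.4% negative. Among the members named by rule, the log2 interaction was 0.61 for Rplp0, 0.60 for Rplp1, 0.59 for Rpl12, 0.53 for Rplp2, 0.53 for Rps16, 0.50 for Rps4x, 0.40 for Rpl10 and 0.37 for Rpl3. It was -0.32 for Rps27l. The count of 17 became 0 under scaling to 6 T cell genes, 0 at an adjusted p of 0.01, 3 with a replicate block and 1 to 47 with 1 library left out.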

How the results depend on the processing

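Direction and calls of the members depended most on the scaling and, for the interaction, on single libraries. Scaled to 6 T cell genes, the KO to WT ratio of the summed share became 1.15 in conventional and 1.47 in regulatory cells, and the regulatory to conventional ratio 1.80 in WT mice and 2.31 in KO mice. The same scaling gave 0 members lower in KO conventional cells, 75 higher in KO regulatory cells, 76 higher and 0 lower between WT cell types, 0 lower between KO cell types, and 0 higher and 0 lower in the interaction. It moved the median of all genes by more than 0.1 in each of the 4 pairwise comparisons, to 0.53, 0.53, 0.71 and 0.62, and of all genes in conventional cells it called 7006 higher and 60 lower, against 3706 and 4043 with TMM and 4057 and 2840 with upper-quartile factors. The members stood 0.31 below the median of all genes in conventional cells and 0.63 above it between cell types in KO, against 0.32 below and 0.65 above with TMM. These gaps hardly depend on scaling, which moves all genes of a library nearly alike, so they do not test it.

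For KO against WT in conventional cells, an adjusted p of 0.01 left 29 members lower, a mean of at least 5 CPM 43, and the 4 libraries with Xist reads, a set chosen after seeing the data, 38. The count called higher was 2 without a filter, 2 without the 4 libraries holding both Xist and Y-linked reads (which leaves 1 regulatory library per genotype, assumed to vary like the other groups) and 2 without the 2 of them at 10 CPM or more (chosen after seeing the data). Leaving out 1 library gave 40 to 73 lower and 1 to 2 higher. Between cell types in WT, an adjusted p of 0.01 left 27 higher, a mean of at least 5 CPM left 0 lower, and leaving out 1 library gave 27 to 65 higher. In KO, the count lower was 0 at an adjusted p of 0.01, 0 at a mean of at least 5 CPM, 2 with only the groups compared and 0 without those 4 libraries. The positive interactions numbered 0 at an adjusted p of 0.01, 27 with RLE factors, 7 with upper-quartile factors, 26 when the members did not enter the scaling, 49 with DESeq2, 32 without a filter, 7 at a mean of at least 5 CPM, 26 without the 4 libraries holding both kinds of reads (again 1 library per regulatory group), 30 without the 2 at 10 CPM or more, and 1 to 47 with 1 library left out. The negative one was lost (0) at an adjusted p of 0.01, without a filter, and without the libraries holding both kinds of reads, and leaving out 1 library gave 0 to 1. The cause was not tested.

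Whether libraries of the same replicate number are paired is not stated. Correlations of same-numbered deviations ran from -0.518 to 0.176, which with 3 libraries per group cannot settle it. With a replicate block, 60 members were lower and 1 higher in KO conventional cells, 0 in regulatory cells, 37 higher and 1 lower between WT cell types, 75 and 1 between KO cell types, and 3 positive and 0 negative interactions were called.

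Of the named members, scaling to T cell genes turned the sign between KO and WT conventional cells for Rpl10 (0.24), Rpl3 (0.22), Rpl32 (0.35), Rpl39 (0.25), Rpl39l (0.35), Rpl4 (0.27), Rplp0 (0.0855), Rplp1 (0.10), Rplp2 (0.10), Rps16 (0.0145), Rps27 (0.0745), Rps4x (0.12) and Rpsa (0.23). It did so in regulatory cells for Rpl12 (0.41), Rpl4 (0.42) and Rps27 (0.52), between cell types in WT for Rpl12 (0.51), Rplp0 (0.58), Rplp1 (0.55) and Rps24 (0.50), and in the interaction for Rpl24 (-0.0166). The sign of Rpl39l in conventional cells turned with limma-voom (0.13). A mean of at least 5 CPM turned Rps27 in regulatory cells (0.0038) and Rplp0 between cell types in WT (0.00303). Without those 4 libraries, with 1 left in each regulatory group, Rpl39l (-0.54) and Rps27 (0.0301) turned in regulatory cells and Rpl39l (-0.27) in the interaction. Without the 2 at 10 CPM or more, Rpl12 (0.0133), Rplp0 (0.0287) and Rplp1 (0.0487) turned between cell types in WT. With 1 library left out, Rpl39l ran from -0.68 to 0.77 in conventional cells. In regulatory cells the ranges were -0.24 to 0.0071 for Rpl12, -0.0115 to 0.19 for Rplp1, -0.0801 to 0.16 for Rplp2, -0.15 to 0.0619 for Rps27 and -0.0025 to 0.18 for Rpsa. Between cell types in WT they were -0.24 to 0.00999 for Rpl12, -0.0368 to 1.91 for Rpl39l, -0.13 to 0.0254 for Rplp0, -0.18 to 0.0454 for Rplp1, -0.00768 to 0.23 for Rplp2 and -0.0258 to 0.20 for Rps27. In the interaction they were -0.0678 to 0.24 for Rpl24 and -0.35 to 1.59 for Rpl39l. Over all named values and all alternatives judged at the threshold of 0.05, 513 of the called values kept their call, 82 lost it and 11 turned sign. The stricter threshold of 0.01 is not in this tally. Depth limits only Rpl3l, Rpl10l, Rpl24 and Rpl39l.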
